A study of Mus musculus with 4 samples.

Results

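The Kruppel-like factor genes Klf2, Klf4, Klf5, Klf6 and Klf9 were followed in single cells sorted from the lungs, mammary lesions and tumors of MMTV-neu mice. They were taken as a named list of 5 genes out of the 27998 genes of the count files, which hold 17 Klf genes in all as named genes. MMTV-neu mice carry the neu (HER2) oncogene under the mouse mammary tumor virus promoter, which drives it mainly in mammary epithelium. All 4 libraries came from this transgenic strain on the FvB background, so there was no library of mice without the transgene. The late lung library and the primary tumor library came from mice older than 20 weeks that bore primary tumors. The early lung library and the early lesion library (mammary gland) came from mice of 14 to 18 weeks without a palpable tumor. Each group was 1 library, and the number of mice behind a library was not given in the sources used here.

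Kruppel-like factors are transcription factors that bind CACCC-type and GC-rich DNA through C2H2 zinc fingers. Klf2 is induced in endothelium by laminar blood flow, through the kinases MEKK3, MEK5 and ERK5 and the MEF2 factors, and it keeps the vessel wall anticoagulant and quiescent. Klf4 acts beside Klf2 in endothelium and also directs the differentiation of barrier epithelia. Klf5 is known from proliferating and branching epithelia, including the developing lung and the mammary gland. Klf6 is induced quickly by injury and growth stimuli, and Klf9 is a direct target of glucocorticoid and thyroid hormone receptors.

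Cells were barcodes with at least 500 UMIs, the molecular tags that count captured transcripts, at least 250 detected genes and at most 20% mitochondrial UMIs. This gave 210 cells in the late lung, 185 in the early lung, 434 in the primary tumor and 1318 in the early lesion. Median depth was 811 UMIs per cell in the late lung, 772 in the early lung, 1657.5 in the tumor and 2360 in the lesion, and 0 barcodes were shared between libraries. Cells over 10000 UMIs held 42.2% of the UMIs in the late lung and 54.5% in the primary tumor, against 5.60% in the early lung and 6.50% in the early lesion, and the members' comparisons and list counts that rest on them are given with and without them below. The labels call all samples breast cancer cells sorted as CD45- HER2+. The defining markers went against that label in the lungs. Clusters made without any Klf or Sp gene were endothelial-like (55 late and 73 early lung cells) or alveolar type 1-like (93 late and 61 early cells), with smaller airway secretory-like, pericyte or smooth muscle-like and fibroblast-like groups. Mammary luminal-like cells were 432 cells of the primary tumor and 1281 of the early lesion, and a class needed at least 10 cells of a library. In 2 small sums the markers went against the name of their cluster. The 10 late lung cells that fell into luminal-like clusters held 150426 CPM of erythroid and 25291 CPM of airway secretory markers, against 17002 CPM of luminal ones, with Csn2, Wap and Glycam1 at 0, so they are given no cell type here. The 16 lesion cells that fell into the pericyte or smooth muscle-like cluster held 8 of 8 mammary basal markers, at 21968 CPM, beside 26520 CPM of that cluster's own markers and 20621 CPM of luminal ones, and they are likewise given no cell type. UMIs of Erbb2, the HER2 gene, were found in 2 of 210 late and 2 of 185 early lung cells, and in 29 of 434 tumor and 30 of 1318 lesion cells. These shares were not matched for depth. As CPM, Erbb2 stood at 7.28 in the late and 14.7 in the early lung, from 3 UMIs each. It stood at 47.6 CPM in the tumor and 7.64 CPM in the lesion, so it did not set lung cells apart from lesion cells. Ptprc, which encodes CD45, had UMIs in 2 cells of the lesion and in 0 cells of the other libraries. With 1 library per group no comparison has a replicate check, and every interval below is an exact 95% interval for counting error only.

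The 5 genes lie on 5 chromosomes of the mm10 (GRCm38) assembly and are protein-coding. Klf2 (ENSMUSG00000055148) occupies chr8:72319033-72321656 on the plus strand with 3 exons, and Klf4 (ENSMUSG00000003032) chr4:55527143-55532466 on the minus strand with 5. Klf5 (ENSMUSG00000005148) lies at chr14:99298691-99315036 with 4 exons, Klf6 (ENSMUSG00000000078) at chr13:5861482-5870394 with 4, and Klf9 (ENSMUSG00000033863) at chr19:23141226-23168134 with 2, all on the plus strand. Exons are those of the principal GENCODE M21 transcript. The only annotated overlap was the microRNA gene Mir1192 on the same strand within Klf9.

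The 250 bases before the RefSeq start of 4 of the 5 genes are shown because Klf2 and Klf4 shared a cell type, and Klf2, Klf4 and Klf6 shared a cell cluster, in the results that follow. The table of promoters used here had no entry for Klf5. Sequences are from GRCm38.p6, 5′ to 3′ on the strand of the gene. The windows are chr8:72318812-72319061 (plus) for Klf2, chr4:55532476-55532725 (minus) for Klf4, chr13:5861239-5861488 (plus) for Klf6 and chr19:23140976-23141225 (plus) for Klf9. Capitals mark every match, on either strand, to the MEF2 motif, the CArG box bound by SRF, the AP-1 motif TGANTCA, the cyclic AMP response element TGACGTCA, the glucocorticoid response element, the CACCC box and the CCAAT box.

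Klf2: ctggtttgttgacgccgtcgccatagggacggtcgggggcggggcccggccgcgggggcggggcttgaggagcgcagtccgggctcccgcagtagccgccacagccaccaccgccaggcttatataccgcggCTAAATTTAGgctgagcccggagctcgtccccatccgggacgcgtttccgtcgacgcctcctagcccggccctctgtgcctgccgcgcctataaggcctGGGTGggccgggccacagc
Klf4: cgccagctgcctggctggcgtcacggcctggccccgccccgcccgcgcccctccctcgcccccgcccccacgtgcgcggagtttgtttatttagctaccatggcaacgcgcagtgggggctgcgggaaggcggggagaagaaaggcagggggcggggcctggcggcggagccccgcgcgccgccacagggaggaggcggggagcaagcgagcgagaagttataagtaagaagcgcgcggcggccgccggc
Klf6: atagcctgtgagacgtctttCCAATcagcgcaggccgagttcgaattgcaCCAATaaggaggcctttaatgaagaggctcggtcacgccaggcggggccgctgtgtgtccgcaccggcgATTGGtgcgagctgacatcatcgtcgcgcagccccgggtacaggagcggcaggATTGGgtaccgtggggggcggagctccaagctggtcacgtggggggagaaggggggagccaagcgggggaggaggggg
Klf9: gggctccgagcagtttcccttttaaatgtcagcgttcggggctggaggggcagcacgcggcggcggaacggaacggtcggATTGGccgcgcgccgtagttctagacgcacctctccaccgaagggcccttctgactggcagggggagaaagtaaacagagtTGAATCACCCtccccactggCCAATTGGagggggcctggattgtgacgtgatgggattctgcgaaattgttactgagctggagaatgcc

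The Klf2 window held a MEF2 motif 118 to 109 bases before the start, a match found in 2.92% of 32851 mouse promoter windows of this length, and a CACCC box, found in 52% of them. The Klf4 window held no match to any of the 7 motifs. The Klf6 window held 4 CCAAT boxes, a motif present in 33.8% of windows. The Klf9 window held 3 CCAAT boxes and an AP-1 motif, which 6.75% of windows hold and whose last bases overlap a CACCC box. The CArG box, the cyclic AMP response element and the full glucocorticoid response element occurred in 1.47%, 1.55% and 0.0609% of all windows and in none of these 4. A match to letters is a description of the sequence and not evidence of binding.

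Klf2 marked lung endothelium. Its level was 1046 CPM (UMIs of the gene per 1000000 UMIs of the class) in the 55 late and 2045 CPM in the 73 early endothelial-like cells. No other class of 10 or more cells exceeded 228 CPM, the value of 12 early fibroblast-like cells, whose 3 UMIs came from 1 cell. Alveolar type 1-like cells held 175 CPM in the late and 147 CPM in the early lung, and airway secretory-like cells 38.0 CPM in the late and 105 CPM in the early lung. Pericyte or smooth muscle-like cells held 112 CPM in the late and 162 CPM in the early lung, and 0 UMIs were found in the 16 unnamed lesion cells of that cluster. Luminal-like cells lay at 10.4 CPM in the primary tumor and 39.7 CPM in the early lesion, and the 10 unnamed late lung cells of luminal-like clusters held 0 UMIs. In the order of levels, early endothelial-like cells stood above late ones and these above every other class with no overlap of intervals, while each of the 11 lower levels overlapped its neighbour in that order.

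**Figure D1:**
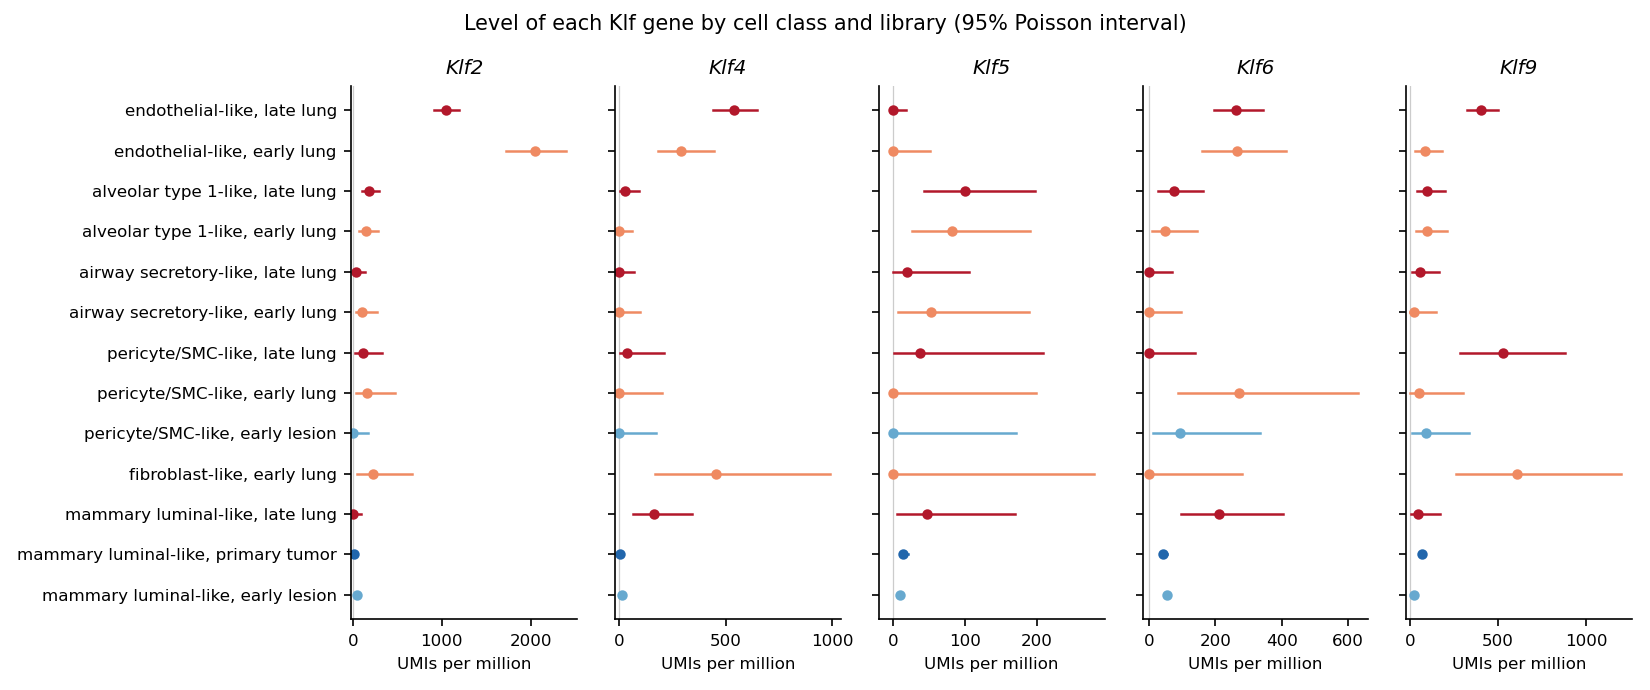
Level of each Klf gene (horizontal axes, CPM of the class, a separate scale for each gene) in every class of at least 10 cells, by library (rows; red late lung, orange early lung, dark blue primary tumor, light blue early lesion). Points are sums over cells and bars exact 95% Poisson intervals. The late lung row of luminal-like cells and the lesion row of pericyte or smooth muscle-like cells hold markers against those names; Klf2 reached 1046 and 2045 CPM in late and early endothelial-like cells, and Klf5 had 0 UMIs in both.

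Within each lung library Klf2, Klf4 and Klf6 were higher in endothelial-like than in alveolar type 1-like cells, and Klf5 was found only on the alveolar side. A gene was counted as higher or lower when its 2 sums held at least 20 UMIs together and the ratio was at least 2-fold. In the late lung 4 of the 4 members with enough counts were higher, against 29.5% of all 2736 genes so measured. For the early lung 3 of 3 were higher, against 22.3% of 1249 genes. Of these, Klf4 had 0 UMIs in alveolar type 1-like cells and reached 20 UMIs through endothelial-like cells alone, so it could only be counted as higher.

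Klf2 had 212 UMIs in late endothelial-like cells and 14 in late alveolar type 1-like cells, a log2 ratio of 2.53 (interval 1.80 to 3.47). In the early lung the counts were 147 and 9, a log2 ratio of 3.72 (2.83 to 4.95). Free RNA, read from barcodes with 1 to 50 UMIs, held Klf2 at 480 CPM in the late and 612 CPM in the early lung. The alveolar type 1-like levels of 175 and 147 CPM lay below that background, so they are not read as expression of Klf2 by those cells. The same holds for Klf4 and Klf6, whose free RNA stood at 104 and 78.4 CPM in the late and 98.4 and 68.4 CPM in the early lung, above the alveolar type 1-like values given below. After every cell was thinned to 500 UMIs, Klf2 was found in 17 of 55 late (30.9%, Clopper-Pearson interval 19.1% to 44.8%) and 40 of 73 early endothelial-like cells (54.8%, 42.7% to 66.5%). The thinned share of alveolar type 1-like cells was 7.53% in the late and 4.92% in the early lung, at median depths of 717 and 802 UMIs, against 769 and 695 UMIs in endothelial-like cells. Unthinned, 52.7% of late and 67.1% of early endothelial-like cells held a Klf2 UMI, and 7.53% of late and 9.84% of early alveolar type 1-like cells did.

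Klf4, the partner of Klf2 in endothelium, had 109 UMIs (538 CPM) in late endothelial-like cells and 2 UMIs (25.0 CPM) in late alveolar type 1-like cells. The log2 ratio was 4.11, with an interval of 2.54 to 7.49. In the early lung it had 21 UMIs (292 CPM) in endothelial-like cells and 0 in alveolar type 1-like cells, which makes it at least 5.96-fold higher against a floor of 3 UMIs in the alveolar sum. Such floor values, here and below, take the other count as exact; the exact interval of this log2 ratio began at 2.15. Other classes that held Klf4 did so through very few cells. The 456 CPM of early fibroblast-like cells was 6 UMIs in 2 cells, and the 165 CPM of the 10 unnamed late lung cells was 7 UMIs in 1 cell. Airway secretory-like cells of both lung libraries and pericyte or smooth muscle-like cells of the early lung were at 0 UMIs. Late endothelial-like cells, early fibroblast-like cells and early endothelial-like cells, which led the order, overlapped in their intervals.

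Klf6 had 53 UMIs (261 CPM) in late endothelial-like cells and 6 UMIs (75.1 CPM) in late alveolar type 1-like cells, a log2 ratio of 1.70 (0.58 to 3.31). The early counts were 19 UMIs (264 CPM) and 3 UMIs (49.0 CPM), a log2 ratio of 2.25 (0.67 to 4.83). Levels in endothelial-like cells of the 2 stages thus differed by less than their counting error. Klf6 did not separate endothelium from every other class: early pericyte or smooth muscle-like cells stood at 270 CPM (5 UMIs in 2 cells), and intervals overlapped between every pair of neighbours in the order of its 13 levels.

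**Figure D2:**
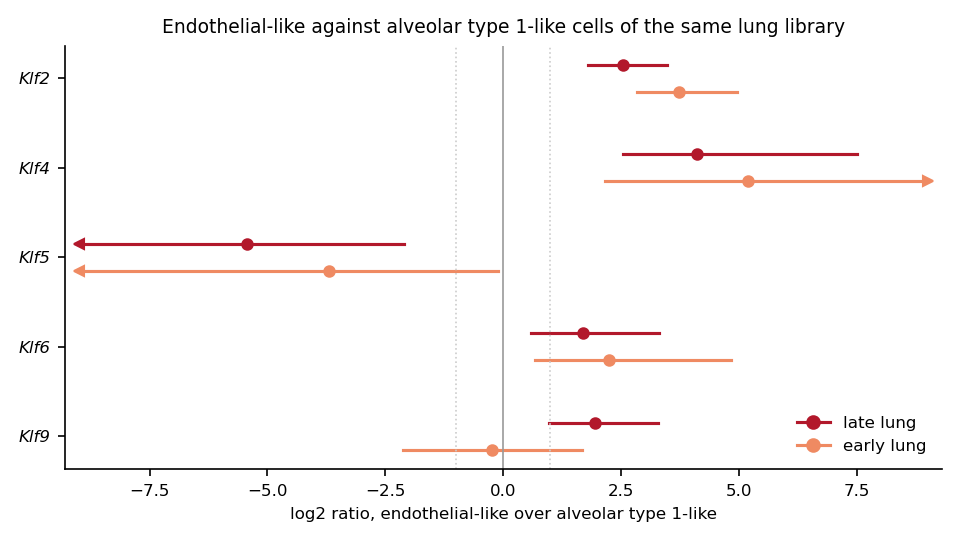
Log2 ratio of endothelial-like over alveolar type 1-like cells (horizontal axis) for each Klf gene (rows), in the late lung (red) and the early lung (orange). Points are ratios of CPM after 0.5 UMIs were added to each sum, bars exact 95% intervals, triangles intervals that run past the axis, and dotted lines 2-fold; Klf2, Klf4 and Klf6 lie right of 0 in both libraries and Klf5 left of it.

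Klf9 depended on a few deep cells. It had 82 UMIs (405 CPM) in late endothelial-like cells, against 8 UMIs (100 CPM) in late alveolar type 1-like cells, a log2 ratio of 1.94 (0.97 to 3.27). In the early lung both classes held 6 UMIs (83.5 and 98.1 CPM). Free RNA held Klf9 at 100 CPM in the late and 55.6 CPM in the early lung. Of the 82 late UMIs, 75 lay in the 6 endothelial-like cells over 10000 UMIs. These held 28, 16, 13, 7, 6 and 5 UMIs of Klf9, and the other 49 cells 7 UMIs together. Klf9 thus stood at 505 CPM in the 6 cells and 129 CPM in the 49, and without the 6 cells the late endothelial-like over alveolar type 1-like log2 ratio was 0.38 (interval -1.33 to 2.02). The 6 cells also held 8 of 10 fibroblast markers above 0 (287 UMIs, 1934 CPM) and 12 of 13 pericyte or smooth muscle markers (876 CPM). In the other 49 cells the fibroblast markers were at 0 UMIs and the pericyte or smooth muscle markers at 166 CPM. The endothelial markers stood at 15930 CPM in the 6 and 14289 CPM in the 49. Outside endothelium Klf9 was highest in 12 early fibroblast-like cells, at 608 CPM (8 UMIs in 2 cells), and in 26 late pericyte or smooth muscle-like cells, at 525 CPM (14 UMIs in 6 cells). The part of the fibroblast and pericyte markers in the Klf9 level of the 6 deep cells was not tested.

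Without cells over 10000 UMIs Klf2 and Klf4 stayed higher in late endothelial-like cells, while Klf6 came to rest on a pair of cells. The late endothelial-like over alveolar type 1-like log2 ratio was then 2.36 for Klf2, 3.66 for Klf4 and 2.21 for Klf6, and 3 members were higher, against 19.6% of 1248 genes. Of the 20 Klf6 UMIs that remained, 14 lay in 2 cells of 6281 and 8543 UMIs. The other 47 cells held 6 UMIs (152 CPM), against 6 UMIs (75.1 CPM) in late alveolar type 1-like cells. In the early lung, where 1 cell was removed, Klf2 stood at 3.71, and Klf4 (12 and 0 UMIs) and Klf6 (14 and 3 UMIs, log2 ratio 2.07) no longer reached 20 UMIs, which left 1 member counted as higher, against 21.2% of 1139 genes.

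**Figure D3:**
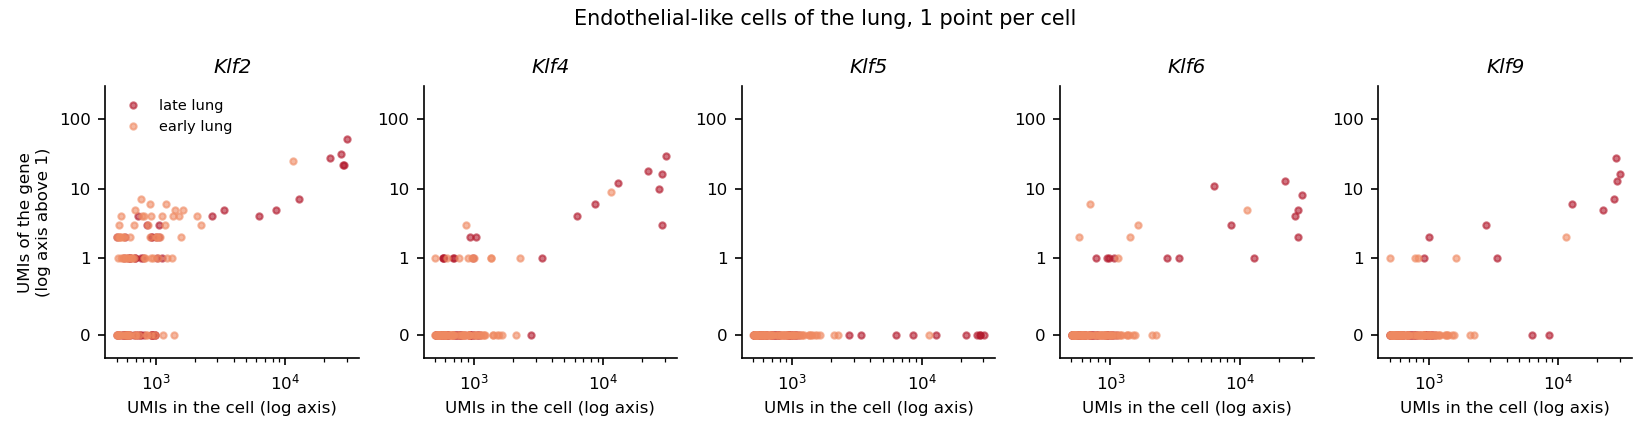
UMIs of each Klf gene (vertical axes, linear to 1 and logarithmic above) against the total UMIs of the cell (horizontal axes, logarithmic) in 55 late (red) and 73 early (orange) endothelial-like cells, 1 point per cell. Klf2 is present across the depth range, Klf5 is at 0 in every cell, and 75 of 82 late Klf9 UMIs lie in the 6 deepest cells.

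Between stages, the endothelial-like cells of the late lung library held less Klf2 than those of the early one, and the values of Klf4 and Klf9 depended on the deep cells. Of the 4 members with enough counts, 1 (Klf9) passed 2-fold, against 14.9% of 2655 genes in the higher direction, and 0 passed it in the lower, against 6.52%. Klf2 had a log2 ratio of -0.97 (interval -1.28 to -0.65), and -1.12 without cells over 10000 UMIs, then past 2-fold in the lower direction. The free RNA of the 2 libraries, at 480 CPM in the late and 612 CPM in the early lung, differed in the same direction, and its part was not tested. Without the deep cells Klf9 held 7 late and 4 early UMIs, too few to be counted as higher. The shares of all genes past 2-fold were not counted for that set of cells. Klf4 had a log2 ratio of 0.85 (0.20 to 1.63), and 0.94 (-0.13 to 2.12) without the deep cells. Klf6 gave -0.04 (-0.80 to 0.82). The log2 ratio of 2.17 for Klf9 (1.09 to 3.76) became 0.89 (-1.01 to 3.18) without the deep cells and -0.077 with every cell thinned to 500 UMIs. In alveolar type 1-like cells only Klf2 reached 20 UMIs over both stages, and its log2 ratio, late over early, was 0.22 (-1.06 to 1.64). There 0 members passed 2-fold, against 10.4% of 1270 genes in either direction.

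Cells that held Klf2 and Klf4 together were few, and their number was not tested against the product of the shares. Among endothelial-like cells up to 10000 UMIs, 6 of 49 late cells held both genes, where the product of their shares makes 5.16 cells. In the early lung 9 of 72 held both, where it makes 6.67. Klf4 without Klf2 was found in 5 late cells and 1 early cell, and Klf2 without Klf4 in 17 late and 39 early cells. At these depths most transcripts of a cell go uncounted, so a cell without a UMI is not shown to lack the gene.

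The few measured genes of the endothelial route to Klf2 and its targets were mostly on the same side as Klf2. In the late lung 6 of 7 measured members of the 16 were higher in endothelial-like cells, against 29.5% of all genes. The median log2 ratio of the 7 was 3.87 (3.65 with genes at 0 set to their bound), against 0.19 over all genes. Early cells gave 4 of 4 higher, against 22.3% of all genes, with a median of 4.57 (3.12 at the bounds), against 0.06. Of these genes, 1 of the 7 late and 2 of the 4 early ones had 0 UMIs in alveolar type 1-like cells. They reached 20 UMIs through endothelial-like cells alone, so they could only be counted as higher. S1pr1, the sphingosine phosphate receptor and a Klf2 target, stood at 839 CPM in late endothelial-like and 25.0 CPM in late alveolar type 1-like cells. Thbd, which encodes the anticoagulant thrombomodulin and is activated by Klf2, stood at 1070 CPM in late endothelial-like and 50.1 CPM in late alveolar type 1-like cells, and at 654 CPM in early endothelial-like and 32.7 CPM in early alveolar type 1-like cells. Mef2c, a MEF2 factor, had 21 UMIs in late endothelial-like and 0 in late alveolar type 1-like cells. Edn1, the vasoconstrictor endothelin that Klf2 represses, was on the endothelial side as well, with 20 UMIs in early endothelial-like and 0 in early alveolar type 1-like cells. Pdcd10, of the CCM complex that restrains the MEKK3 route, was the late member past no threshold, at 183 CPM in endothelial-like and 175 CPM in alveolar type 1-like cells. With the deep cells left out, 2 of 3 measured genes of this list were higher in the late lung (Thbd and S1pr1), against 19.6% of all genes. In the early lung 3 of 3 were higher, against 21.2%.

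The other fixed lists gave few measurable genes in the lung, and their counts stand beside the 29.5% of all genes that were higher in the late and the 22.3% in the early comparison. Among the other Klf and Sp factors, 3 of 3 measured were higher in late endothelial-like cells (Klf7, Klf3 and Klf13) and 1 of 2 in early ones (Klf7, at 250 CPM in endothelial-like and 114 CPM in alveolar type 1-like cells). Klf7 had 103 UMIs in late endothelial-like and 0 in late alveolar type 1-like cells. Without cells over 10000 UMIs neither Klf7 nor Klf3 reached 20 UMIs in the late comparison, so both counts rest on the deep cells. Immediate early genes were higher for 6 of 8 in the late lung and for 2 of 4 in the early lung (Jun and Dusp1). Jun, a subunit of AP-1, had a log2 ratio of 3.98 in the late and 3.12 in the early lung. Of the immediate early genes Ier3 was lower in the early lung (log2 ratio -2.36). Of the glucocorticoid response list, 2 of 5 were higher (Ddit4 and Nr3c1) and 1 lower (Errfi1) in the late lung, and 0 of 1 passed in the early lung. The alveolar transcription factors were on the alveolar side for 3 of 4 in the late and 2 of 2 in the early lung, led by Nkx2-1, with 2 UMIs in late endothelial-like and 26 in late alveolar type 1-like cells. The exception was Wwtr1, the partner of TEAD factors known as TAZ, at a log2 ratio of 1.26 in the late lung. Hopx, on the alveolar side in both lungs, was also a marker that named the alveolar type 1-like cells. Its side was therefore set in advance, and it adds no support to these counts. Luminal transcription factors gave 1 higher (Xbp1) and 1 lower (Cebpb) of 3 in the late lung, and 1 higher of 1 in the early lung, Gata3 (log2 ratio 1.40). Gata3 gave -0.12 in the late lung. Without cells over 10000 UMIs 19.6% of all genes were higher in the late comparison. Of the lists, 1 of 1 other Klf and Sp factors (Klf13) and 2 of 5 immediate early genes (Jun and Dusp1) were then higher. For the glucocorticoid response it was 2 of 3 (Nr3c1 and Tsc22d3) and for luminal factors 0 of 2, and 3 of 3 alveolar factors were lower. Ier3 of the immediate early genes and Cebpb of the luminal factors were then lower as well. The share of all genes that were lower was not counted in the endothelial over alveolar comparisons. The counts of lower genes in this paragraph thus have no background.

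Klf5 was found in alveolar type 1-like and not in endothelial-like cells, from few UMIs. It had 0 UMIs in the 55 late and 0 in the 73 early endothelial-like cells, which at 3 UMIs allows up to 14.8 CPM in the late and 41.7 CPM in the early lung. Alveolar type 1-like cells held 8 UMIs (100 CPM, 43.2 to 197) in 6 late cells and 5 UMIs (81.7 CPM, 26.5 to 191) in 3 early cells. In each library 1 of these cells held 3 of the UMIs. Free RNA held Klf5 at 12.5 CPM in the late and 4.28 CPM in the early lung, below both intervals. The exact interval of the endothelial-like over alveolar type 1-like log2 ratio lay below -2.11 in the late and below -0.11 in the early lung, with too few UMIs to enter the count of members. Airway secretory-like cells held 1 UMI (19.0 CPM) in the late and 2 UMIs (52.3 CPM) in the early lung, and late pericyte or smooth muscle-like cells 1 UMI (37.5 CPM). Intervals overlapped between every pair of neighbours in the order of the 13 Klf5 levels. Luminal-like cells held Klf5 at 14.2 CPM (9.31 to 20.9) in the primary tumor and 10.0 CPM (7.14 to 13.7) in the early lesion, beside free RNA of 10.9 CPM in the tumor and 4.68 CPM in the lesion. Those levels lie below what 0 UMIs allows in endothelial-like cells, so Klf5 does not separate these 2 classes at this depth.

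Set against mammary luminal-like cells of the same stage, alveolar type 1-like cells held more Klf2 and Klf5 as CPM. Class, site and library cannot be told apart in these comparisons. In the late stage 2 of 4 measured members were higher in alveolar type 1-like than in tumor luminal-like cells, against 21.7% of 7718 genes. In the early stage 3 of 5 were higher than in lesion luminal-like cells, against 31.5% of 8287 genes. The Klf5 log2 ratio was 2.87 (interval 1.459 to 3.998) late and 3.14 (1.32 to 4.37) early. Klf2 gave 4.09 (2.96 to 5.15) late and 1.96 (0.73 to 2.85) early, with the alveolar levels below the Klf2 of the free RNA as stated. Klf9 gave 0.61 (-0.72 to 1.55) late and 2.14 (0.55 to 3.21) early. Klf6 gave 0.90 (-0.69 to 1.98) late and 0.12 (-2.39 to 1.47) early, neither beyond counting error over all cells. The late value depended on the deep tumor cells. Without deep cells Klf6 gave 1.79 (0.099 to 3.09) late, from 6 alveolar and 19 luminal UMIs, and 0.13 (-2.38 to 1.48) early. The late alveolar level of Klf6 lay below its free RNA, as stated. Without deep cells the late log2 ratio was 3.84 for Klf2 and 0.92 (-0.44 to 1.95) for Klf9. For Klf5 it was 3.21, from 8 and 9 UMIs, too few to enter the count of members. Of Klf4, alveolar type 1-like cells held 2 UMIs late and 0 early.

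Luminal-like cells of the primary tumor held less Klf2 and Klf4 and more Klf9 than those of the early lesion. All 5 members had enough counts: 2 were lower, against 6.96% of 9732 genes, and 1 was higher, against 25.9%. Klf2 had 19 UMIs (10.4 CPM) in 432 tumor cells and 154 UMIs (39.7 CPM) in 1281 lesion cells, a log2 ratio of -1.90 (interval -2.70 to -1.24). Klf4 had 3 UMIs (1.64 CPM) in the tumor and 53 UMIs (13.7 CPM) in the lesion, a log2 ratio of -2.84 (-5.38 to -1.43). Klf9 had 127 UMIs (69.6 CPM) in the tumor and 93 UMIs (24.0 CPM) in the lesion, a log2 ratio of 1.54 (1.14 to 1.94). Klf5 gave 0.51 (-0.27 to 1.26) and Klf6 -0.27 (-0.67 to 0.10), neither of them beyond counting error. Free RNA held Klf2 at 10.9 CPM in the tumor and 66.6 CPM in the lesion, Klf4 at 1.36 CPM in the tumor and 25.7 CPM in the lesion, and Klf9 at 28.6 CPM in the tumor and 17.0 CPM in the lesion. Klf6 stood at 19.1 CPM in the free RNA of the tumor and 72.5 CPM in that of the lesion. In the lesion the free RNA of Klf2, Klf4 and Klf6 was thus above the mean level of the luminal-like cells, and those means are not read as expression. The Klf2 mean of the tumor, at 10.4 CPM, also lay below its free RNA of 10.9 CPM. How much of the counts in cells is free RNA was not measured. In free RNA Klf2, Klf4 and Klf9 differed in the same direction as in cells, and its part in these differences was not tested.

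The 18 tumor cells over 10000 UMIs decided the value of Klf6. They held 60 of its 79 tumor UMIs (60.3 CPM), of which 20 lay in 1 cell, and the other 414 cells held 19 UMIs (22.9 CPM). Without cells over 10000 UMIs the tumor over lesion log2 ratio of Klf6 was -1.15 (interval -1.95 to -0.50). Then 3 members were lower, against 11.5% of 8621 genes, and Klf9 alone was higher, against 15.3%. Klf2 gave -1.54, Klf4 -2.18 and Klf9 1.32 (0.76 to 1.85) in those cells. Among luminal-like cells of 1000 to 5000 UMIs with at most 1% mitochondrial UMIs, 227 of the tumor and 743 of the lesion, Klf2 gave -2.06, Klf4 -1.76, Klf6 -1.92 (-3.15 to -1.02) and Klf9 1.75 (1.02 to 2.49), with 3 members lower against 14.4% of genes and 1 higher against 16%.

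**Figure D4:**
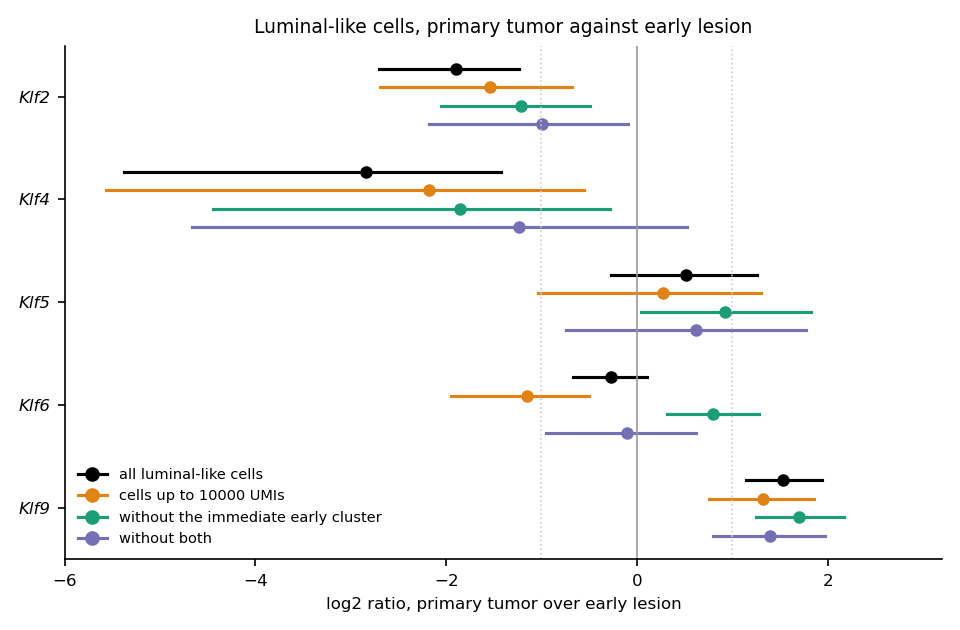
Log2 ratio of primary tumor over early lesion luminal-like cells (horizontal axis) for each Klf gene (rows) in 4 sets of cells: all (black), up to 10000 UMIs (orange), without the lesion cluster led by immediate early genes (green) and without both (purple). Bars are exact 95% intervals and dotted lines 2-fold; Klf9 stays between 1.32 and 1.70, while Klf6 ranges from -1.15 to 0.79.

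Within the lesion, Klf2, Klf4 and Klf6 were concentrated in a cluster of 217 cells led by the immediate early genes Fosb, Atf3 and Fos and by the heat shock gene Hspa1a. No Klf gene had entered the clustering. This cluster held 85 of 154 Klf2, 34 of 53 Klf4 and 134 of 204 Klf6 UMIs of the lesion's luminal-like cells. Its levels were 78.9 CPM of Klf2, 31.6 CPM of Klf4 and 124 CPM of Klf6, against 20.7, 8.26 and 23.6 CPM in the largest lesion cluster, 477 cells led by milk genes. Of these, the interval of Klf6 (104 to 147 CPM) lay above the 72.5 CPM of the free RNA, while those of Klf2 (63.0 to 97.6) and Klf4 (21.9 to 44.1) held their free RNA levels. Klf5 stood at 16.7 CPM (9.90 to 26.4) in the 217 cells and 5.90 CPM (2.83 to 10.9) in the 477, and Klf9 at 30.6 and 21.8 CPM, with intervals that overlapped. Such overlap does not show equal levels, and no interval was taken for the ratio between clusters. The summed immediate early list stood at 5169 CPM in the 217 cells and 2093 CPM in the 477, and between 663 and 1158 CPM in the 4 tumor clusters. Another lesion cluster, 105 cells with Apoe and mitochondrial genes in the lead, held Klf2 at 83.7 CPM with 4.65 CPM of Klf4 and 27.9 CPM of Klf6. Among the tumor clusters Klf9 ranged from 31.6 to 81.7 CPM and Klf2 from 5.26 to 14.3 CPM, with intervals that overlapped.

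**Figure D5:**
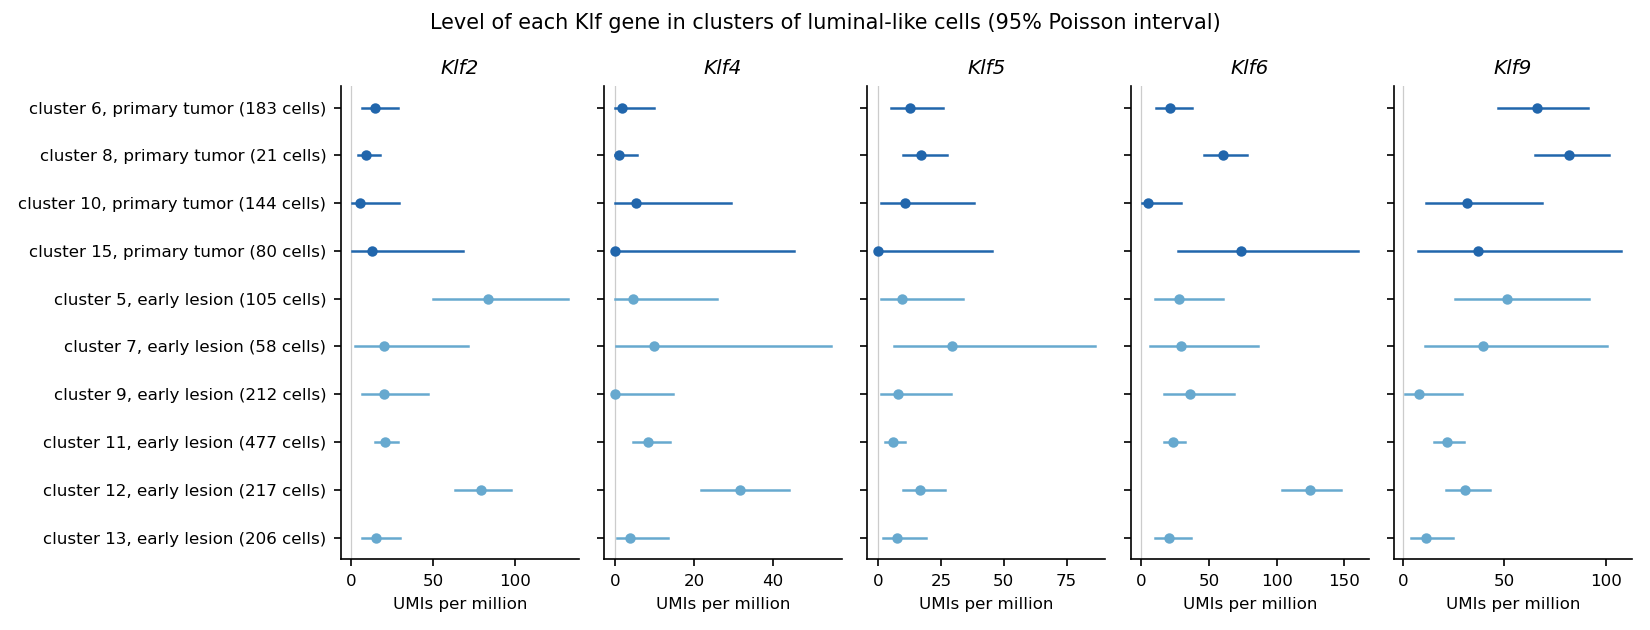
Level of each Klf gene (horizontal axes, CPM, a separate scale for each gene) in the clusters of luminal-like cells with at least 10 cells of a library (rows; dark blue primary tumor, light blue early lesion). Points are sums over cells and bars exact 95% Poisson intervals; cluster 12 is the 217 lesion cells led by immediate early genes, at 124 CPM of Klf6 against 23.6 CPM in cluster 11, the largest.

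Without the 217 cells the tumor over lesion log2 ratio was -1.21 (interval -2.06 to -0.49) for Klf2 and -1.86 (-4.44 to -0.28) for Klf4. Klf6 turned to 0.79 (0.31 to 1.28), and Klf9 stood at 1.70 (1.25 to 2.17). The 2 lower members stood against 5.74% of 9309 genes and the 1 higher member against 28.8%. With both the 217 cells and the cells over 10000 UMIs left out, Klf2 gave -0.999 (-2.18 to -0.09), just short of 2-fold, and Klf4 -1.24 (-4.67 to 0.53), from 2 tumor and 19 lesion UMIs. Klf6 gave -0.11 (-0.95 to 0.62) and Klf9 1.40 (0.80 to 1.98). In that set 1 member was lower, against 9.83% of 8014 genes, and 1 was higher, against 17.3%.

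Most immediate early genes were lower in the tumor, as were Klf2 and Klf4, and 4 glucocorticoid response genes were higher, as was Klf9. Of 14 immediate early genes 10 were lower in tumor than in lesion luminal-like cells and 2 higher, against 6.96% and 25.9% of all genes. The median log2 ratio of the 14 was -2.23, against 0.33 over all genes. Fosb had 0 UMIs in the tumor and 139 in the lesion, at least 21.8-fold lower. Atf3, a stress-induced factor, gave -4.74 and Egr1, a growth-induced zinc finger factor, -3.85. The 2 higher members were Ier3 (2.10) and Srf (1.19). The 7 measured glucocorticoid response genes had a median of 1.21. Against 25.9% of all genes higher and 6.96% lower, 4 of the 7 were higher and 0 lower. They were Errfi1, an inhibitor of EGFR and HER2 kinases (2.78), the clock gene Per1 (2.57), the receptor co-chaperone Fkbp5 (1.45) and the kinase Sgk1 (1.21). Tsc22d3, a common glucocorticoid target, gave -0.11 and Nr3c1, the receptor, 0.61, neither past 2-fold. These are counts over single libraries, and the lists were chosen with earlier results of these data known.

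Among cells up to 10000 UMIs 10 of 13 immediate early genes were lower and 1 higher, against 11.5% and 15.3% of all genes. Of 6 glucocorticoid response genes 3 were higher (Fkbp5, Sgk1 and Errfi1), against the same 15.3%.

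The remaining lists split, with shares of higher genes near the 25.9% of all genes or below it. Of 10 measured other Klf and Sp factors 1 was higher, Sp1 at 24.1 CPM in the tumor and 10.3 CPM in the lesion, and 0 were lower, with Klf7 (log2 ratio -0.86) and Klf15 (-0.58) next in size. Of 10 genes of the endothelial route 3 were higher (Heg1, Mef2d and Krit1) and 2 lower (Vcam1 and Edn1). Heg1, the receptor that anchors the CCM complex, had 21 tumor UMIs and 1 lesion UMI (log2 ratio 4.93, interval 2.85 to 10.85), and Mef2d gave 2.29. Vcam1, an adhesion molecule of inflamed endothelium, had 0 tumor and 29 lesion UMIs, at least 4.54-fold lower. Of 11 luminal factors 3 were higher, Tfap2c (1.42), Esr1 (1.09, interval -0.26 to 2.44) and Grhl2 (1.0005), the last just past 2-fold, and 2 lower, the milk regulator Elf5 (-2.07) and Elf3 (-1.84). Of 7 alveolar factors 2 were higher, Etv5 (5.96) and Tead1 (2.12), and Cebpa was lower (-1.92). Without cells over 10000 UMIs 15.3% of all genes were higher and 11.5% lower. Of 9 other Klf and Sp factors Klf16 was then higher and Klf7 lower. Of 8 genes of the endothelial route Map2k5 and Mef2d were higher, and Edn1 and Vcam1 lower. Of 10 luminal factors Tfap2c was higher, and Elf5, Elf3 and Stat5a lower. Of 6 alveolar factors Etv5 and Wwtr1 were higher, and Cebpa lower. Sp1, Heg1, Krit1, Esr1, Grhl2 and Tead1 were thus not counted as higher without the deep cells.

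By the likeness of their levels over the 13 sums of library and cluster class, the 2 unnamed ones included, the 5 genes had different companions. Likeness was the Pearson correlation of log2(CPM + 10) among 3711 genes with at least 200 UMIs, and the sums share libraries and depth, so it is a description. Klf2 was most like Foxf1, a vascular and mesenchymal forkhead factor of the lung (r = 0.91), Id3 (0.88) and the endothelial gene Egfl7 (0.88). Klf4 was most like Sepp1 (0.86), Gbp2 (0.86) and the endothelial receptor gene Calcrl (0.85). Klf5 was most like Mal2 (0.84), the airway gene Sec14l3 (0.83) and Pgrmc1 (0.83), from 84 UMIs of Klf5 in all. The genes most like Klf6 included Mkln1 (0.93) and Atp2b1 (0.89), and Klf9 was most like Shisa5, Lamp2 and Rhoc (0.84, 0.84 and 0.81). Between members, Klf4 was closest to Klf9 (r = 0.59) and to Klf2 (0.52), and Klf5 was negative with each of the other 4 (-0.34 to -0.23).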

How the data were processed

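Cells were profiled with the 10x Chromium 3' v2 kit, per the labels' protocols, and build mm10 is named in the submitters' processing notes; neither an aligner nor a counting program is named in the sources. The matrices deposited by the authors hold raw UMI counts per gene and barcode, over all 737280 barcodes of the kit. Library totals were 1070236 (late lung), 743765 (early lung), 3403140 (primary tumor) and 6366768 (early lesion) UMIs. From the deposited counts, cells were kept at the minimums given above, scaled to 10000 UMIs, log-transformed and clustered with scanpy 1.11.5 (2000 variable genes, 30 principal components, 15 neighbours, Leiden resolution 1), leaving out every Klf and Sp gene, without integration. Clusters were named from 17 marker lists; 1 cluster of 8 lesion cells stayed unnamed. Doublet scoring marked 3 late lung, 0 early lung, 4 tumor and 0 lesion cells, which were kept.

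UMIs were summed per library and class of at least 10 cells. Ratios were taken after 0.5 UMIs were added to each sum, with exact conditional intervals (scipy 1.17.1) that cover counting error only. With 1 library per group no test was made. The 5 members, the 6 gene lists and the markers were chosen with earlier results of these data known. The named genes are the members, up to 3 genes per list by the size of the log2 ratio in the tumor over lesion and the 2 endothelial over alveolar comparisons, and the 3 genes most alike each member, of which 1 is not reported here. Beyond this rule, Pdcd10, Wwtr1 and, in tumor over lesion, Krit1, Edn1, Sgk1, Nr3c1, Tsc22d3, Ier3, Srf, Esr1 and Grhl2 were named after their values were seen. The scripts were tested on simulated data.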

Additional observations from a re-analysis of the deposited data

Results flagged for a closer look

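Klf4 differed in direction between sites from the early to the late stage. In endothelial-like lung cells the late over early log2 ratio was 0.85, and in luminal-like cells of the primary site the tumor over lesion log2 ratio was -2.84, with neither counting interval reaching 0 over all cells. Without cells over 10000 UMIs the endothelial value was 0.94 (interval -0.13 to 2.12), which holds 0; 88 of the 109 late UMIs lay in 6 cells. The difference between the sites was not tested, since each group was 1 library. The luminal value rests on 3 tumor UMIs, and the lesion mean of 13.7 CPM lay below the 25.7 CPM of the lesion's free RNA.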

How the results depend on the processing

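No paired analysis was possible because each group has 1 library and no test was made. Of 7 counts of members past 2-fold under 13 planned and 3 added alternatives, the added ones chosen after seeing the data, 81 values lay within 1.5 times the main count and 10 did not. Endothelial over alveolar type 1-like cells gave 1 member thinned to 500 UMIs in the late and in the early lung, against 4 and 3, and 1 in the early lung without cells over 10000 UMIs. Alveolar type 1-like over luminal-like cells gave 0 in the late and 1 in the early stage when thinned, against 2 and 3, and 4 and 5 with 5 UMIs added to each sum. Late over early endothelial-like cells gave 2 with classes set by marker UMIs and 2 scaled by the median of ratios, against 1, and alveolar type 1-like cells gave 1 with no minimum of UMIs, against 0. The log2 ratio of Klf9 in late over early endothelial-like cells turned to -0.077 when thinned, against 2.17; the cause was not tested. The tumor over lesion count stayed between 2 and 4, against 3. Scaling by the median of ratios moved all log2 ratios by 0.85 in the early and 0.51 in the late alveolar over luminal comparison, by -0.43 in the late endothelial over alveolar one, by 0.30 in tumor over lesion and by -0.26 in late over early endothelial-like cells. At a minimum of 1000 UMIs no cluster took the endothelial name, so the 3 endothelial comparisons gave no value. Depth limits Klf5 most: 84 UMIs were counted in all cells.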
